A study of Homo sapiens with 8 samples.

Results

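The genes described here are 10 parts of the circadian clock, namely CLOCK, PER1, PER2, PER3, CRY1, CRY2, NR1D1, NR1D2, DBP and TEF. They were measured in resting and dividing fractions of RL, a human B lymphoma cell line (t(14,18)+). RL was kept for 14 days in multicellular aggregates, then sorted by its RNA content with the RNA dye pyronin Y. The dull fraction was taken as quiescent and the bright fraction as cycling. Total RNA, 30 ng for each sample, was labelled and hybridised to Affymetrix arrays, with 4 cycling and 4 quiescent arrays. All 8 arrays share the cell line, the culture as aggregates and the culture time, and the cycling cells are the control. The line is 1 established lymphoma, and the sort used RNA content as its sole stated criterion. The sources used here give neither the time of day at sorting nor whether samples came from separate cultures. The p-values below therefore rest on the spread among these samples, and that spread may be technical.

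A clock gene was followed through probe sets annotated with its symbol alone, and where it had several, through the probe set with the highest mean log2 intensity over the 8 arrays. By this rule 8 of the 10 genes were measured, among 19775 genes with such a probe set. PER1, with 4 probe sets, and NR1D1, with 3, share every probe set with another annotated gene and were not analysed here. Of the 8 genes, 7 passed a filter at an intensity of 83.3, the midpoint of the probe sets once controls are left out, and were tested among 11678 genes. CRY1 was too dim and is given as values.

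The clock is a feedback loop of transcription that takes about a day. CLOCK pairs with BMAL1 and activates genes through E-boxes in their promoters, among them the PER, CRY and NR1D genes. The PER and CRY proteins return to the nucleus and repress CLOCK and BMAL1, and the NR1D proteins (REV-ERB) repress BMAL1 through ROR elements. DBP and TEF, transcription factors with a PAR and a basic leucine zipper domain, carry the rhythm to further genes through D-boxes. Nearly all cell types, lymphocytes included, hold these parts.

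The sequences through which the loop works stand in the promoters of several of these genes. Shown are matches in PER2 and TEF, the members called lower in the centred values, and in CRY1 and PER3, the dimmest members. PER1 and NR1D1, which were not analysed, also hold matches, which are not printed. Any link between these letters and the measured levels was not tested. The 250 bases before the start of each of the 10 genes, from RefSeq on build GRCh38.p14, were searched on both strands. Capitals mark the match, with up to 22 bases on each side, read 5′ to 3′ on the strand of the gene. The PER2 stretch is chr2:238288780-238288829 on the minus strand, the TEF stretch chr22:41367238-41367287 on the plus strand, the CRY1 stretch chr12:107093611-107093660 on the minus strand and the PER3 stretch chr1:7784092-7784143 on the plus strand.
PER2: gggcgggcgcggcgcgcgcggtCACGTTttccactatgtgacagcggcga
TEF: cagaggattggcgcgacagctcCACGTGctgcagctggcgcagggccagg
CRY1: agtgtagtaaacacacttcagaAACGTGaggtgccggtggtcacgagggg
PER3: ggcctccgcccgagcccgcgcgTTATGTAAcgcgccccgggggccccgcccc
The canonical E-box CACGTG, which reads the same on both strands, was found for TEF and PER1, in 2 of the 10 promoters and in 6.49% of 27305 promoters of the same length. The variant CACGTT, called E-prime box here, was found for PER2, CRY1 and NR1D1, 3 of 10 against 4.5%. In CRY1 and NR1D1 it lies on the opposite strand as AACGTG. The D-box form TTATGTAA was found for PER3, 1 of 10 against 0.861%. The other D-box form TTACGTAA (0.117% of all promoters), the ROR element core TAGGTCA (1.64%) and the cAMP element TGACGTCA (1.77%) were not in these windows of any of the 10 genes. A match describes the letters alone, and nothing about binding was measured.

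After the authors' scaling the arrays had the same trimmed mean intensity, but their medians ran from 72.2 to 113.8 and were higher on quiescent arrays. Values were therefore centred on the array medians, which lowers every log2 difference (quiescent minus cycling) by 0.412 against the deposited scaling, and the difference of each member is given under both and after quantile normalization. For other genes the centred difference comes first, and the deposited one stands beside it where named. Over all genes tested the median difference came to −0.33 in the centred values, 0.08 in the deposited ones and −0.04 after quantile normalization. The arrays measure each transcript relative to the others, so that fewer cells of a kind in a fraction and less RNA per cell cannot be told apart. The sorted groups differed as labelled, with MKI67, the proliferation marker, at 1899 ± 388 (SD, n = 4) on cycling and 362 ± 188 on quiescent arrays, and TOP2A at 4783 ± 512 and 540 ± 262. All 5 measured B cell markers passed the filter, with sums from 51250 to 61831 on cycling and 51025 to 62458 on quiescent arrays as deposited. In the centred values 4 of these 5 were called lower by limma (MS4A1 −0.39, CD79A −0.56, CD22 −0.52 and PAX5 −0.51 on the log2 scale), and none as deposited or after quantile normalization. Of the 3 germinal centre markers, CD38 fell under all 3 scalings, by 1.68 centred and 1.27 as deposited. BCL6 was called lower in the centred values only (−0.49, with −0.07 as deposited). MME had −0.14 centred and 0.28 as deposited, and was called higher after quantile normalization (0.40, limma adjusted p = 0.0302). The 4 T cell markers summed to between 195 and 434 on any array and the 3 measured myeloid markers to between 102 and 296, none of the latter above the filter. The fibroblast sums ran from 215 to 388 and from 242 to 395. RNA quality moved with the groups. The log2 ratio of 3′ to 5′ ACTB control probe sets was 2.02 ± 0.20 on cycling and 2.57 ± 0.18 on quiescent arrays (SD, 4 arrays in a group). A two-sided exact permutation test gave p = 0.0286, the smallest that 70 assignments allow, and the part of this difference in the values below was not tested.

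Of the 10 clock genes 7 could be tested, and no member passed the test under all 3 scalings. In the centred values PER2 and TEF fell and 5 of the 7 tested genes were not called, whereas as deposited CLOCK alone rose. The log2 differences of CLOCK, CRY2 and NR1D2 were above 0 and those of PER2 and TEF below 0 under each of the 3 scalings, while those of DBP and PER3 changed sign with the scaling. With 1 array left out, the centred differences of CRY2 and NR1D2 fell to as low as −0.0097 and −0.012. In the centred values 2 of 7 were called by limma, against 35.3% of all genes tested in either direction. Both were lower, against 32.5% of all genes, and 0 were higher, against 2.8%, with the same 2 and 0 at an unadjusted p under 0.05, where all genes had 39.2% lower and 4.44% higher. As deposited, 1 of 7 was called, against 27.7% in either direction, and it was higher, against 12.2%, with 0 lower, against 15.4%, and with 3 higher and 0 lower at an unadjusted p under 0.05, where all genes had 19.5% higher and 20% lower. After quantile normalization none of the 7 was called by limma, against 26.9% of all genes in either direction, 10.5% higher and 16.4% lower, with 0 higher and 2 lower at an unadjusted p under 0.05, where all genes had 15.6% higher and 21.6% lower. At adjusted p the shares of the members were near or below those of all genes. The median log2 difference of the 7 was −0.09 in the centred values, 0.32 in the deposited ones and −0.02 once quantile normalized.

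**Figure D1:**
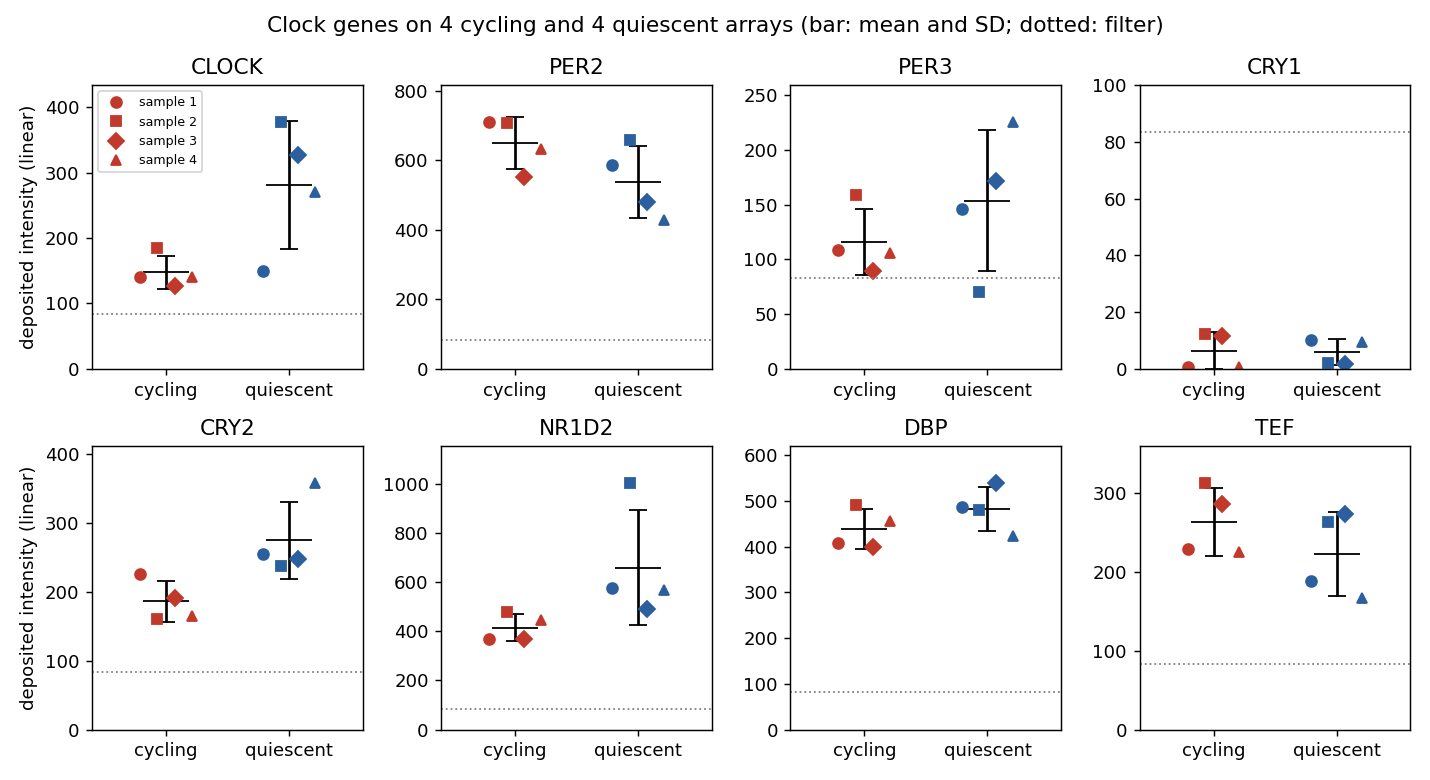
Deposited intensities (linear axis) of 8 clock genes on 4 cycling (red) and 4 quiescent (blue) arrays, with a marker shape for each sample number, the mean and SD as black bars, and the filter at 83.3 as a dotted line. CRY2 and NR1D2 are higher on every quiescent array than on any cycling array, PER2 and TEF overlap on this scale, and CRY1 lies far under the filter.

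CLOCK, the activator of the loop, had the largest difference toward quiescent cells among the members. Its brightest probe set measured 140, 184, 126 and 141 on cycling samples 1 to 4 and 150, 378, 327 and 270 on quiescent samples 1 to 4. Quiescent samples 2 to 4 lay above all cycling arrays, whereas quiescent sample 1 lay among them. The means were 148 ± 25.1 and 281 ± 98.0 (SD, n = 4 each). The log2 difference was 0.45 centred (SE 0.29, 95% interval −0.16 to 1.06, limma adjusted p = 0.252), 0.86 as deposited (interval 0.21 to 1.51, adjusted p = 0.0478) and 0.53 after quantile normalization (adjusted p = 0.215). Without quiescent sample 1 the centred difference was 0.72 and passed (adjusted p = 0.0432), and without each of the other arrays it did not pass. The 3 dimmer probe sets of CLOCK had centred differences of 0.24, 0.25 and 0.11, none of which passed, and 1 of them lay under the filter. As deposited, where CLOCK was called, they had 0.66, 0.67 and 0.52 and did not pass either. Their limma adjusted p over all probe sets without the filter was 0.258, 0.327 and 0.517. The partners of CLOCK were dim. BMAL1 and BMAL2 did not pass the filter, with means of 16.7 and 19.5 for BMAL1 and 80.7 and 73.9 for BMAL2 on cycling and quiescent arrays. NPAS2, a relative of CLOCK, measured 135 ± 75.8 and 128 ± 76.6 with a log2 difference of −0.37 centred (interval −1.50 to 0.75, adjusted p = 0.631) and 0.04 as deposited.

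PER2, a repressor of the loop, was called lower in the centred values alone. It measured 711, 707, 553 and 632 on cycling samples 1 to 4 and 586, 660, 481 and 428 on quiescent samples 1 to 4. The groups overlapped as deposited, since quiescent samples 1 and 2 lay above cycling sample 3, and did not overlap once centred. PER2 fell by 0.70 on the log2 scale in the centred values (SE 0.20, 95% interval −1.11 to −0.28, limma adjusted p = 0.0106), and the differences of −0.29 as deposited (interval −0.68 to 0.10, adjusted p = 0.258) and −0.41 after quantile normalization (adjusted p = 0.122) did not pass. In the centred values it passed without any 1 of the 8 arrays, with adjusted p from 0.00734 to 0.0468. Its dimmer probe set gave −0.88 centred (limma adjusted p over all probe sets above the filter 0.018) and −0.47 as deposited. The dimmer probe set was lowest on quiescent sample 2 (125), where the brightest was highest within its group (660).

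PER3, the third PER gene, was dim and scattered. It measured 109, 159, 89.7 and 106 on cycling and 147, 70.6, 172 and 226 on quiescent arrays, and the groups overlapped. Its log2 difference was −0.09 centred (interval −0.85 to 0.66, adjusted p = 0.872) 0.32 as deposited (interval −0.50 to 1.14, adjusted p = 0.562) and −0.06 after quantile normalization (adjusted p = 0.923), so that these arrays leave a wide range of changes undetectable. A second probe set above the filter gave 0.03 centred, with its highest value (242) on quiescent sample 2, where the first was lowest (70.6). Its other 2 probe sets lay under the filter.

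Of the CRY genes, which repress CLOCK and BMAL1 together with PER, CRY1 stayed at between 0.658 and 12.2 on all 8 arrays under the filter, and detection calls were not used. CRY2 measured 226, 161, 192 and 165 on cycling and 255, 238, 248 and 358 on quiescent arrays. Every quiescent array was above every cycling array as deposited, and the groups overlapped once centred. The means were 186 ± 30.0 and 275 ± 56.0 (SD, n = 4 each). The log2 difference was 0.14 centred (interval −0.39 to 0.68, adjusted p = 0.704), 0.56 as deposited (interval 0.06 to 1.05, adjusted p = 0.0898) and 0.26 after quantile normalization (adjusted p = 0.471). CRY2 has 1 probe set, so that no second one checks it.

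NR1D2, which encodes REV-ERB beta, a repressor that acts through ROR elements, measured 368, 478, 367 and 446 on cycling and 575, 1004, 491 and 567 on quiescent arrays. The groups did not overlap as deposited and overlapped once centred, and quiescent sample 2 stood well above the other arrays. The log2 difference was 0.21 centred (interval −0.26 to 0.68, adjusted p = 0.512), 0.62 as deposited (interval 0.14 to 1.10, adjusted p = 0.0554) and 0.48 after quantile normalization (adjusted p = 0.135). Its other probe set gave 0.24 centred and 0.66 as deposited and did not pass either. As deposited, 2 of the 7 genes tested, CRY2 and NR1D2, had non-overlapping groups with quiescent higher, against 13.3% of all genes, and 0 had quiescent lower, against 15.4%. Once centred, PER2 and TEF had non-overlapping groups with quiescent lower, 2 of 7 against 28.2%, and 0 had quiescent higher, against 3.04%.

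The PAR bZIP factors DBP and TEF, which bind D-boxes, differed in their values. DBP, a direct target of CLOCK and BMAL1, measured 408, 492, 399 and 457 on cycling and 487, 480, 540 and 423 on quiescent arrays, and the groups overlapped. Its log2 difference was −0.27 centred (interval −0.68 to 0.13, adjusted p = 0.292), 0.14 as deposited (interval −0.22 to 0.50, adjusted p = 0.57) and −0.02 after quantile normalization (adjusted p = 0.932). TEF measured 229, 314, 287 and 226 on cycling and 189, 264, 274 and 167 on quiescent arrays, and the groups overlapped as deposited but not once centred. TEF fell by 0.67 on the log2 scale in the centred values (SE 0.25, interval −1.20 to −0.14, limma adjusted p = 0.047). It did not pass as deposited (−0.26, adjusted p = 0.452) or after quantile normalization (−0.56, adjusted p = 0.104). In the centred values TEF passed without quiescent sample 2 or 3 alone, and lost its call without any other 1 array, with adjusted p up to 0.151. Over all probe sets above the filter its adjusted p was 0.053, and its 3 other probe sets lay under the filter. HLF, the third factor of this kind, lay under the filter with means of 19.0 and 22.4.

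**Figure D2:**
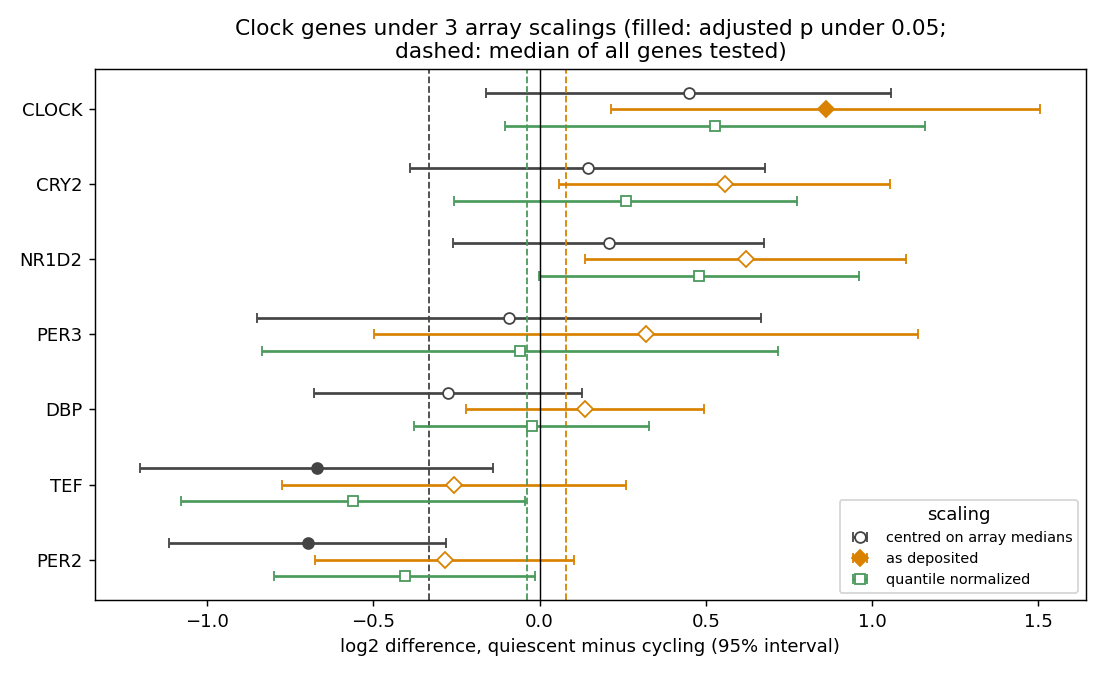
Log2 difference, quiescent minus cycling, of the 7 tested clock genes with 95% intervals from limma under 3 array scalings, filled where the adjusted p is under 0.05, and dashed lines at the median of all genes tested under each scaling. Filled points are PER2 and TEF in the centred values and CLOCK as deposited, and CLOCK is highest under each scaling.

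Set against the median of all genes, which removes the shift between the centred and deposited values, CLOCK lay 0.78 above the median on the log2 scale, NR1D2 0.54, CRY2 0.48, PER3 0.24 and DBP 0.06, and TEF and PER2 lay at −0.34 and −0.37. After quantile normalization these were 0.56 for CLOCK, 0.52 for NR1D2, 0.30 for CRY2, −0.02 for PER3, 0.01 for DBP, −0.52 for TEF and −0.37 for PER2. Intervals of neighbours in this order overlapped. The log2 ratio of a pair of members on the same array is likewise free of the shift between centred and deposited values, though not of quantile normalization, and was examined after the values had been seen, as a description. Of the 21 pairs of tested members, 4 had ratios that did not overlap between the groups, against 27.0% of all 68182003 pairs of genes tested, so that non-overlapping pairs were not more frequent among the clock genes. NR1D2 over PER2 had log2 ratios of −0.95, −0.56, −0.59 and −0.50 on cycling and −0.03, 0.61, 0.03 and 0.40 on quiescent arrays, means that differ 1.87-fold. PER2 was also the lower partner for CRY2 (1.79-fold) and DBP (1.34-fold), and CLOCK over TEF differed 2.17-fold. CLOCK over PER2 differed 2.21-fold and overlapped, with quiescent sample 1 at −1.97 below cycling sample 2 at −1.94.

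**Figure D3:**
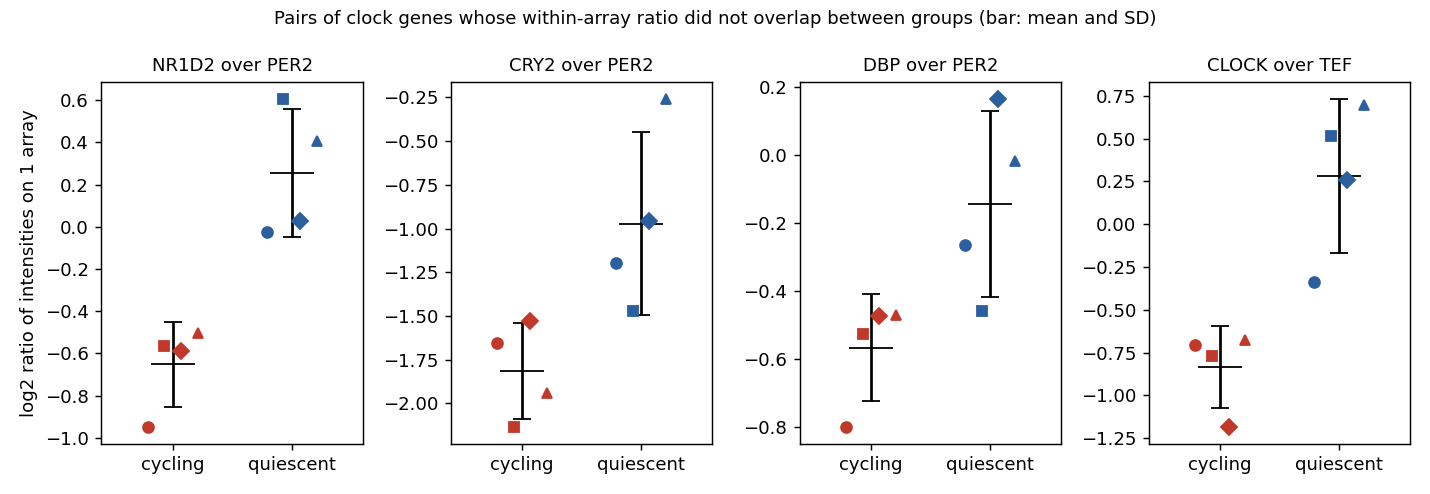
Log2 ratio of the intensities of 2 clock genes on the same array for the 4 pairs whose groups did not overlap, on 4 cycling (red) and 4 quiescent (blue) arrays, with the mean and SD as bars and marker shapes for the sample number. NR1D2 over PER2 lies between −0.95 and −0.50 on cycling and between −0.03 and 0.61 on quiescent arrays, and the gap is narrowest for DBP over PER2.

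Within the groups, members varied in different ways. Across 8 arrays, after the group means were removed, the deviations of NR1D2 and PER3 had a Pearson correlation of −0.92, those of PER2 and PER3 −0.82, those of DBP and TEF 0.67 and those of NR1D2 and PER2 0.62, while CLOCK and CRY2 had −0.16. The value for NR1D2 and PER3 rests on quiescent sample 2, without which it was −0.38, and that for PER2 and PER3 was −0.81 without it. With the second PER3 probe set above the filter both had the opposite sign, 0.64 with NR1D2 and 0.71 with PER2. Without quiescent sample 2 this second probe set gave −0.35 with NR1D2 and 0.47 with PER2. The PER3 probe sets therefore differed in sign for PER2 with or without that array, and for NR1D2 only with it. These are descriptions over arrays that share their scaling. Among all other genes tested, the 1 most like each member over the 8 arrays was SNRPC for PER2 (r = 0.99), ADCY2 for PER3 (0.97), RASSF6 for CRY2 (0.95), PLXNC1 for CLOCK (0.96), UBR3 for NR1D2 (0.94), TMT1A for DBP (1.00) and GPATCH1 for TEF (0.97, and 0.763 as deposited). Each is the highest of many correlations over 8 points. SNRPC itself fell, by 0.91 on the log2 scale in the centred values (limma adjusted p = 0.00254), and the other 6 were not called.

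Beyond the 10 members, 42 further genes of the clock were listed by role, of which 32 were tested. In the centred values 15 of the 32 were called lower, against 32.5% of all genes, and 1 higher, against 2.8%. As deposited 5 were lower and 4 higher, against 15.4% and 12.2%. The median log2 difference of the 32 was −0.41 centred and 0.01 as deposited, against −0.33 and 0.08 for all genes. Under all 3 scalings 5 were lower, against 14.1% of all genes, and 1 was higher, against 2.74%. Of the 15 genes lower in the centred values 10, among them those 5, passed without any 1 array, and GSK3B, PPP1CC, CSNK1A1, NAMPT and NOCT did not. GSK3B lost its call without cycling or quiescent sample 4. PPP1CC lost it without either of these or cycling sample 3. CSNK1A1 lost it without any of these 3 or quiescent sample 1. The adjusted p reached 0.0845 for these 3 genes, 0.15 for NAMPT, which lost its call without cycling sample 1, 3 or 4 or quiescent sample 3 or 4, and 0.128 for NOCT, which kept it without cycling sample 2 or quiescent sample 1 alone.

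The gene called higher under all 3 scalings was BHLHE40, which encodes DEC1, a repressor that binds E-boxes. It measured 244, 281, 156 and 187 on cycling and 397, 531, 395 and 382 on quiescent arrays, without overlap. BHLHE40 rose by 0.58 centred (SE 0.22, limma adjusted p = 0.0479), by 1.00 as deposited (adjusted p = 0.00624) and by 0.74 after quantile normalization (adjusted p = 0.0181). Its centred call was lost without cycling sample 3 or 4 or any 1 quiescent array, with adjusted p up to 0.146. A second probe set gave 0.95 centred (limma adjusted p over all probe sets above the filter 0.0169). In that same fit the brightest probe set had an adjusted p of 0.0536 and did not pass. Of the other repressors, NFIL3, which competes at D-boxes, had −0.39 (adjusted p = 0.139) and 0.02 as deposited. CIART, a repressor of CLOCK and BMAL1, had 0.24 (adjusted p = 0.526) and 0.65 as deposited (adjusted p = 0.118). BHLHE41 lay under the filter. RORA, an activator at ROR elements, had 0.41 (adjusted p = 0.369) at its brightest probe set. Of its 4 probe sets above the filter 1 was called (1.39, limma adjusted p over all probe sets above the filter 0.0273). That probe set measured 48.3, 58.4, 46.6 and 41.7 on cycling arrays, all under the filter, and 112, 449, 105 and 154 on quiescent arrays. It passed the filter only through the quiescent arrays, so that its call does not count as support.

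Of the 11 tested kinases, phosphatases, ligases and deubiquitinases that modify PER and CRY, 6 fell in the centred values, against 32.5% of all genes, and 2 of them under all 3 scalings, against 14.1%. USP2, a deubiquitinase of clock proteins that is itself a rhythmic gene in many tissues, measured 2178, 1008, 1599 and 2061 on cycling and 920, 480, 529 and 735 on quiescent arrays. Every quiescent array was below every cycling array, and the means of 1712 ± 531 and 666 ± 202 differ 2.57-fold. USP2 fell by 1.76 centred (SE 0.29, limma adjusted p = 3.29e-04) and by 1.35 as deposited (adjusted p = 0.00203). In the centred values it passed without any 1 array, and its 3 probe sets above the filter were all called lower. The second brightest of them did not pass as deposited (−0.50, limma adjusted p over all probe sets without the filter 0.215). PPP1CA, a catalytic subunit of protein phosphatase 1, which removes phosphates from PER, fell from 7882 ± 701 to 5459 ± 516, by 0.94 centred and 0.53 as deposited (limma adjusted p = 6.09e-04 and 0.0042). Values of the casein kinases that phosphorylate PER lay on both sides of 0. CSNK1D fell by 0.71 centred, with −0.30 as deposited (adjusted p = 0.163). Its second probe set above the filter was not called (−0.39 centred, limma adjusted p over all probe sets above the filter 0.112). As deposited that probe set had 0.02. CSNK1A1 fell by 0.53 at the brightest of its 12 probe sets above the filter, the 1 called in the centred values. The brightest had 0.02 after quantile normalization. A dimmer probe set of CSNK1A1 rose as deposited (0.59, limma adjusted p over all probe sets without the filter 0.0265). After quantile normalization it rose as well (0.66, adjusted p likewise 0.0205). Another rose as deposited only (0.99, adjusted p likewise 0.0394). CSNK1E was not called in the centred values (0.28, adjusted p = 0.36) and rose by 0.69 as deposited (adjusted p = 0.0136), where its second probe set gave 0.02. GSK3B and PPP1CC fell by 0.57 and 0.52 centred only, with −0.16 and −0.11 as deposited, and USP7 and PPP1CB had −0.41 and −0.29 and did not pass. USP7 passed without cycling sample 2 (adjusted p = 0.0396) and had 0.0012 as deposited.

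**Figure D4:**
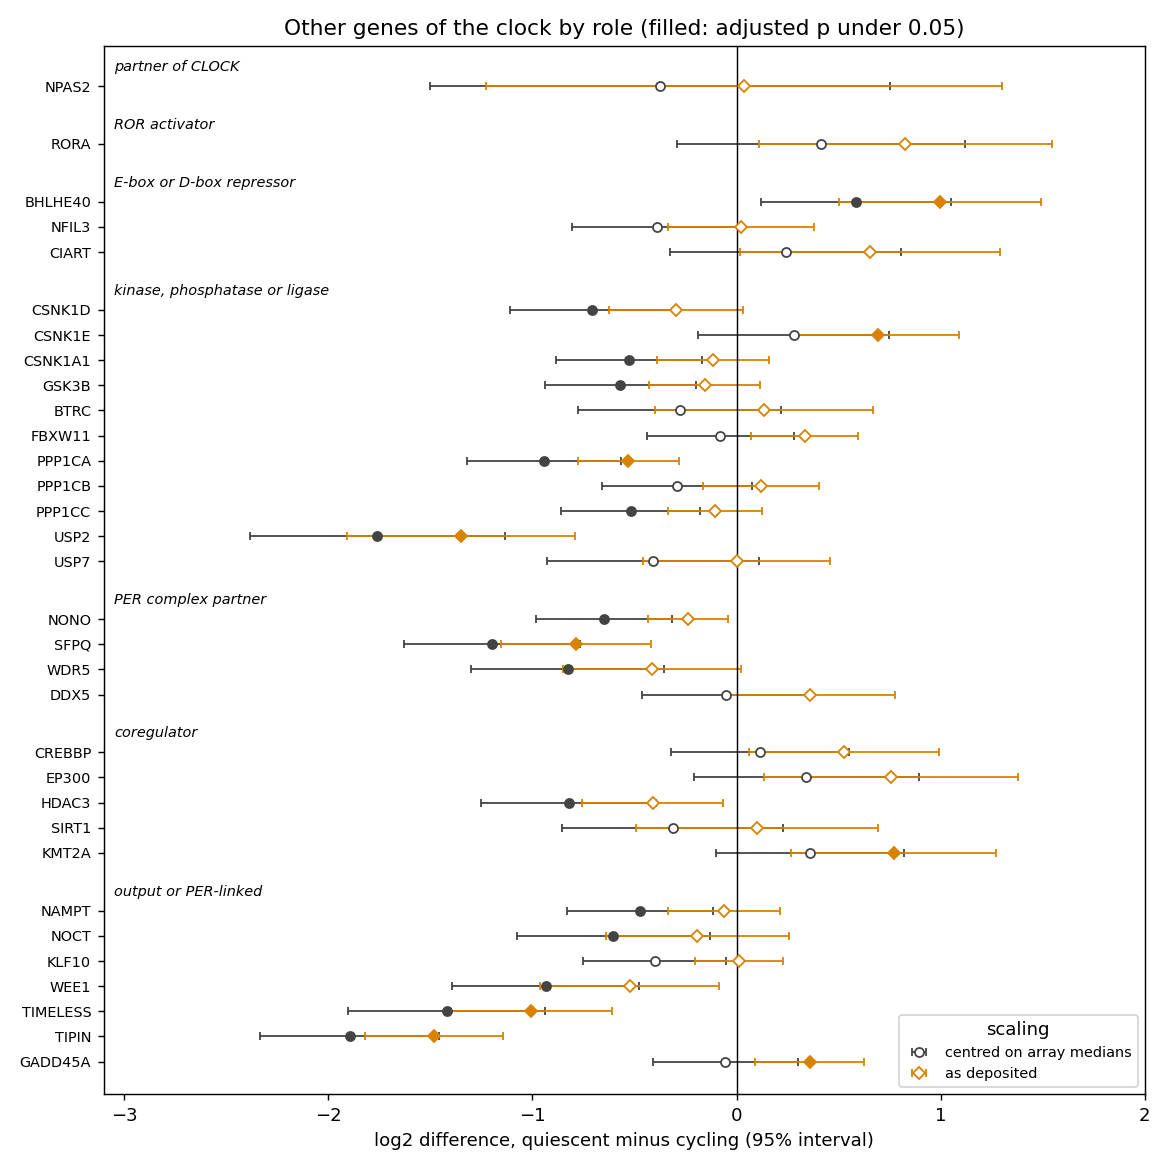
Log2 difference, quiescent minus cycling, of 32 other clock genes by role, with 95% intervals from limma, centred on array medians (circles) and as deposited (diamonds), filled where the adjusted p is under 0.05. USP2, PPP1CA, SFPQ, TIMELESS and TIPIN are filled below 0 on both scales and BHLHE40 above 0, and each circle lies left of its diamond by the shift between the scalings.

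Among proteins found in PER complexes, SFPQ, an RNA-binding corepressor, fell by 1.20 centred and 0.79 as deposited (limma adjusted p = 2.49e-04 and 0.00444), and 4 of its 5 probe sets were called lower in the centred values. NONO, its partner, fell by 0.65 centred and WDR5, a part of histone methyltransferase complexes, by 0.83. At their brightest probe sets both passed in the centred values only (−0.24 and −0.41 as deposited, adjusted p = 0.0711 and 0.147). A dimmer probe set of NONO passed as deposited (−0.48, limma adjusted p over all probe sets without the filter 0.0373). A dimmer one of WDR5 passed after quantile normalization (−0.82, adjusted p likewise 0.0422). DDX5, an RNA helicase, had −0.05 (adjusted p = 0.872) and 0.36 as deposited (adjusted p = 0.182), with quiescent sample 2 far above the other quiescent arrays. Of 5 coregulators tested, HDAC3, the histone deacetylase that acts with REV-ERB, fell by 0.82 centred, with −0.41 as deposited (adjusted p = 0.0736). KMT2A, a histone methyltransferase, had 0.36 (adjusted p = 0.223, and 0.0349 without quiescent sample 1) and rose as deposited by 0.77 (adjusted p = 0.0256), with quiescent sample 1 far below the other quiescent arrays, and EP300, an acetyltransferase, had 0.34 and 0.75 and did not pass in either.

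TIPIN and TIMELESS, with USP2, had the largest decreases of the list in the centred values. TIMELESS is a relative of a fly clock protein, and TIPIN is the partner of TIMELESS. In mammals both are known above all for protecting replication forks. TIPIN measured 2105, 1396, 2005 and 1823 on cycling and 673, 694, 579 and 650 on quiescent arrays, with no overlap, and fell by 1.90 centred (SE 0.21, limma adjusted p = 4.62e-06) and 1.48 as deposited. TIMELESS measured 2997, 1510, 2187 and 2390 on cycling and 1141, 1010, 1059 and 1189 on quiescent arrays, with no overlap, and fell by 1.42 centred and 1.01 as deposited (limma adjusted p = 1.62e-04 and 0.00155). The MKI67 values given above moved between the same arrays. WEE1, the kinase that restrains entry to mitosis and a clock-controlled gene in some tissues, fell by 0.94 centred, with −0.52 as deposited (adjusted p = 0.073) and quiescent sample 2 far above the other quiescent arrays. NOCT, a phosphatase under clock control, and NAMPT, the enzyme of the salvage of NAD, fell by 0.60 and 0.47 in the centred values only, and NAMPT had another probe set called in the opposite direction (0.97, adjusted p over all probe sets above the filter 8.82e-04). KLF10 had −0.40 (adjusted p = 0.071), passed without cycling sample 2 (adjusted p = 0.00226) and had 0.011 as deposited. GADD45A had −0.05 centred and 0.36 as deposited (adjusted p = 0.047).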

How the data were processed

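RNA of 4 quiescent and 4 cycling samples, grouped by their titles, was measured on 1 array each. The deposited values are linear MAS5 intensities, per the submitters' processing notes, which name no version. The values themselves show that the authors scaled every array to a common mean (500.1 once the outer 2% on both sides are left out). Detection calls were not used. Intensities under 1 were set to 1, taken to log2 and centred on array medians. Of 42898 listed probe sets, 1801 have several symbols and name no gene. No column was left unused. Groups were compared with limma 3.58.1 (lmFit, eBayes with trend and robust) in R 4.3.3, with group as the single term. Adjusted p-values follow Benjamini and Hochberg across 11678 genes, and calls needed 0.05. The fit was tested on simulated data. Array quality was compared by exact permutation. Alternatives were other scalings, filters (none, 75th percentile), 32 added before log2, the mean of a gene's probe sets, plain eBayes, a replicate block and leaving out each array. Named are the members, the listed genes called, up to 2 uncalled ones per role, and the nearest gene of each member. The members and lists were chosen with earlier results of these data known. The number of arrays limits the precision. Tables and plots used Python 3.11.15, pandas 2.3.3 and matplotlib 3.10.9. Chosen after seeing the data were the ratios of members, the second PER3 probe set in the correlations and the intensity scale for arrays far from the others.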

Additional observations from a re-analysis of the deposited data

Results flagged for a closer look

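Among 78 groups of 4 arrays, 1 for each tested gene of both lists and each fraction, 5 had an array far from the other 3 by Dixon's ratio of gap to range, taken on centred log2 values, at its 95% critical value, where chance flags about 1 in 20. None of these 5 was a group of a clock member. On deposited intensities 7 groups passed, among them CRY2 on quiescent sample 4 (ratio 0.855) and NR1D2 on quiescent sample 2 (0.836). The values below give the ratio on centred log2 values and then deposited intensities. SIRT1 on cycling sample 1 (ratio 0.984) measured 1573 against 2567 to 3516, and CREBBP on the same array (0.842) measured 1076 against 1677 to 2522. KMT2A on quiescent sample 1 (0.83) measured 2879 against 5022 to 5469. DDX5 on quiescent sample 2 (0.914) measured 1982 against 1150 to 1205, and WEE1 on the same array (0.84) measured 2243 against 1505 to 1612.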

How the results depend on the processing

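The array scaling moved the results most. Over all genes, 327 were higher and 3794 lower centred, 1430 and 1802 as deposited, and 1233 and 1914 after quantile normalization (1230 and 1913 on the genes of the centred fit). Of the clock members 0 were higher and 2 lower centred, 1 and 0 as deposited, and 0 and 0 after quantile normalization. Of the 2 lower members PER2 alone (1) was called with no filter and with 32 added, and PER2 (1) was called with the stricter filter and with the mean of all probe sets, where 3 and 5 members were tested and TEF was not. Without 1 array, 0 to 1 members were higher and 1 to 2 lower. Of the further clock genes 1 was higher and 15 lower centred, 4 and 5 as deposited, 5 and 5 after quantile normalization, and 0 were higher without the filter or with the stricter one. Without 1 array, 0 to 1 were higher and 10 to 17 lower. Differences called in at least 1 setting had the opposite sign in another for CSNK1A1 (0.022 after quantile normalization and 0.031 with the mean of all probe sets), FBXW11 (0.41 after quantile normalization), GADD45A (0.36 as deposited and 0.48 after quantile normalization) NAMPT (0.057 after quantile normalization), KLF10 (0.011 as deposited and 0.142 after quantile normalization) and USP7 (0.0012 as deposited and 0.13 after quantile normalization). The causes were not tested. Same-numbered arrays had correlated deviations of 0.34, 0.20, 0.11 and 0.04. The last lay under the 0.1 set for taking the numbers as pairs, so the main fit did not use them. Not every array was most like its own number. Whether the numbers pair the samples remains unknown. The replicate block gave 464 genes higher and 4439 lower, 0 and 2 members, and 1 and 16 further clock genes, with KLF10 called lower (adjusted p = 0.023). Non-overlapping pairs of members numbered 3 after quantile normalization and 4 to 6 without 1 array. The share over all pairs of genes was computed in the main setting only, so these counts have no background beside them. With fewer arrays any pair separates more easily.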
